A study of Mus musculus with 11 samples.

Results

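The genes described here are those that build the lipid-linked precursor of N-glycans, transfer it to protein, trim and check it in the endoplasmic reticulum, and supply the activated sugars and sulfate that glycosylation consumes. Of 55 genes listed for these steps, 40 were matched to a probe set of the array through a RefSeq transcript, out of 909 named genes and 1246 probe sets in all. Where a gene had several probe sets, the brightest over the 11 arrays was taken, a choice that concerned Gmppa alone. The other 15 genes (Alg3, Alg11, Alg14, Dpm3, Dolpp1, Stt3a, Stt3b, Tusc3, Magt1, Mogs, Man1a, Man1a2, Man1b1, Man1c1 and Manea) are not analysed here, so that the catalytic subunits of oligosaccharyltransferase and the trimming mannosidases are missing from every count below.

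An N-glycan is first built sugar by sugar on the lipid dolichol. Enzymes on the cytosolic face of the endoplasmic reticulum add N-acetylglucosamine and mannose from UDP-GlcNAc and GDP-mannose, the chain is flipped, and lumenal enzymes extend it from dolichol-bound mannose and glucose. Oligosaccharyltransferase then moves the finished chain to asparagine, glucosidases trim it, and the folding sensor UGGT puts glucose back on misfolded glycoproteins. The sugar nucleotides made in the cytosol also feed the Golgi enzymes that branch and cap N-glycans, which on T cells shape receptor retention and galectin binding.

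Transcripts were measured in CD4+ T cells that were flow sorted from the spleens of female C57BL/6 mice with no genetic modification or treatment named in the labels. The populations were CD4+CD25+(CD45RBlow) cells, labelled Treg (n = 3, replicates 1, 2 and 4), CD4+CD25-CD45RBlow cells, labelled activated/memory (n = 4), and CD4+CD25-CD45RBhigh cells, labelled naïve (n = 4), called Treg, CD45RBlow and CD45RBhigh from here on. The CD25- samples came from mice 4 to 6 weeks old, and the Treg labels give no age, so age and population cannot be told apart in the comparisons with Treg. Each sample was hybridised to 1 array of a custom Affymetrix glycan gene chip, and values are log2 expression as deposited. The labels do not say whether replicates came from separate animals, or whether animals were pooled, so each p-value reflects the spread among these samples only.

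The interleukin-2 receptor chain Il2ra, the sort marker CD25, read 9.84 ± 0.17 (SD, n = 3) in Treg, 6.17 ± 0.36 (n = 4) in CD45RBlow and 4.07 ± 0.27 (n = 4) in CD45RBhigh arrays. Cd2, the CD4 T cell list's only measured gene (1 of 8), was high on all arrays and higher in Treg (12.26 to 12.39) than in CD45RBlow (11.69 to 11.93, limma adjusted p = 0.00154) and CD45RBhigh arrays (11.75 to 11.87, adjusted p = 0.000441). Of the 9 genes listed for Treg, 5 were measured and all 5 were higher in Treg than in either CD25- population. All 5 were also higher in CD45RBlow than in CD45RBhigh arrays, by log2 differences of 1.08 to 2.10. The Treg transcription factor Foxp3 was not among them. The summed log2 level of the naive markers measured (3 of 6) lay at 12.37 to 12.54 in Treg, 12.45 to 12.67 in CD45RBlow and 13.04 to 13.31 in CD45RBhigh arrays, and that of the activation and memory markers (6 of 8) at 11.04 to 11.14, 12.83 to 13.26 and 10.11 to 10.74. Of the latter, Cd44 (1.44) and Cxcr3 (1.93) were past the threshold in Treg minus CD45RBhigh. Cxcr6 (0.41) and Ifng (0.67) were not, nor were Ccl5 (-0.24) and Il4 (-0.11), which had the other sign. The summed level of the B cell markers measured (Cd22 and Cd72, 2 of 7) lay at 8.50 to 8.72, 7.86 to 8.25 and 7.94 to 8.26, but the genes differed in order. Against CD45RBlow arrays Treg was higher for Cd72 (0.85, adjusted p = 0.00154) and lower for Cd22 (-0.30, adjusted p = 0.0235), and Cd22 was highest in CD45RBlow arrays (mean 6.64, beside 6.35 in Treg and 6.06 in CD45RBhigh). The summed level of the platelet markers measured (Selp and Pf4, 2 of 5) lay at 5.74 to 6.06, 5.49 to 5.74 and 5.58 to 5.75. For 5 of 11 myeloid markers it lay at 6.31 to 6.42, 6.25 to 6.43 and 6.31 to 6.40, and for 3 of 7 NK and CD8 T cell markers, led by Klrd1, at 4.56 to 4.99, 8.09 to 8.60 and 8.99 to 9.43. The part of such cells in the differences given here was not tested. In sorted bulk RNA, fewer cells of a type and less RNA per cell cannot be told apart.

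The members were measured across most of the range of the array. Array medians lay between 4.85 and 4.94, and 10 of the 40 members had means below the lowest of these. Alg6, Pgm3, Galk2 and Uggt2 had means under 3.64, the first quartile of all values, near the low end of the scale. The probe sets of Dpagt1, Alg2, Alg6, Alg8, Alg10b, Dpm2, Uxs1 and Papss2 carry the suffix s, which marks probes that can match more than 1 transcript. Most members varied little over the 11 arrays. A spread of at least 1 log2 unit between the lowest and the highest array was found for 4 of them, the glucosyltransferase gene Alg8 (1.04), Pmm2 (1.10) and Ugp2 (1.14) of sugar nucleotide supply, and the glucosamine-phosphate acetyltransferase gene Gnpnat1 (1.63).

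**Figure D1:**
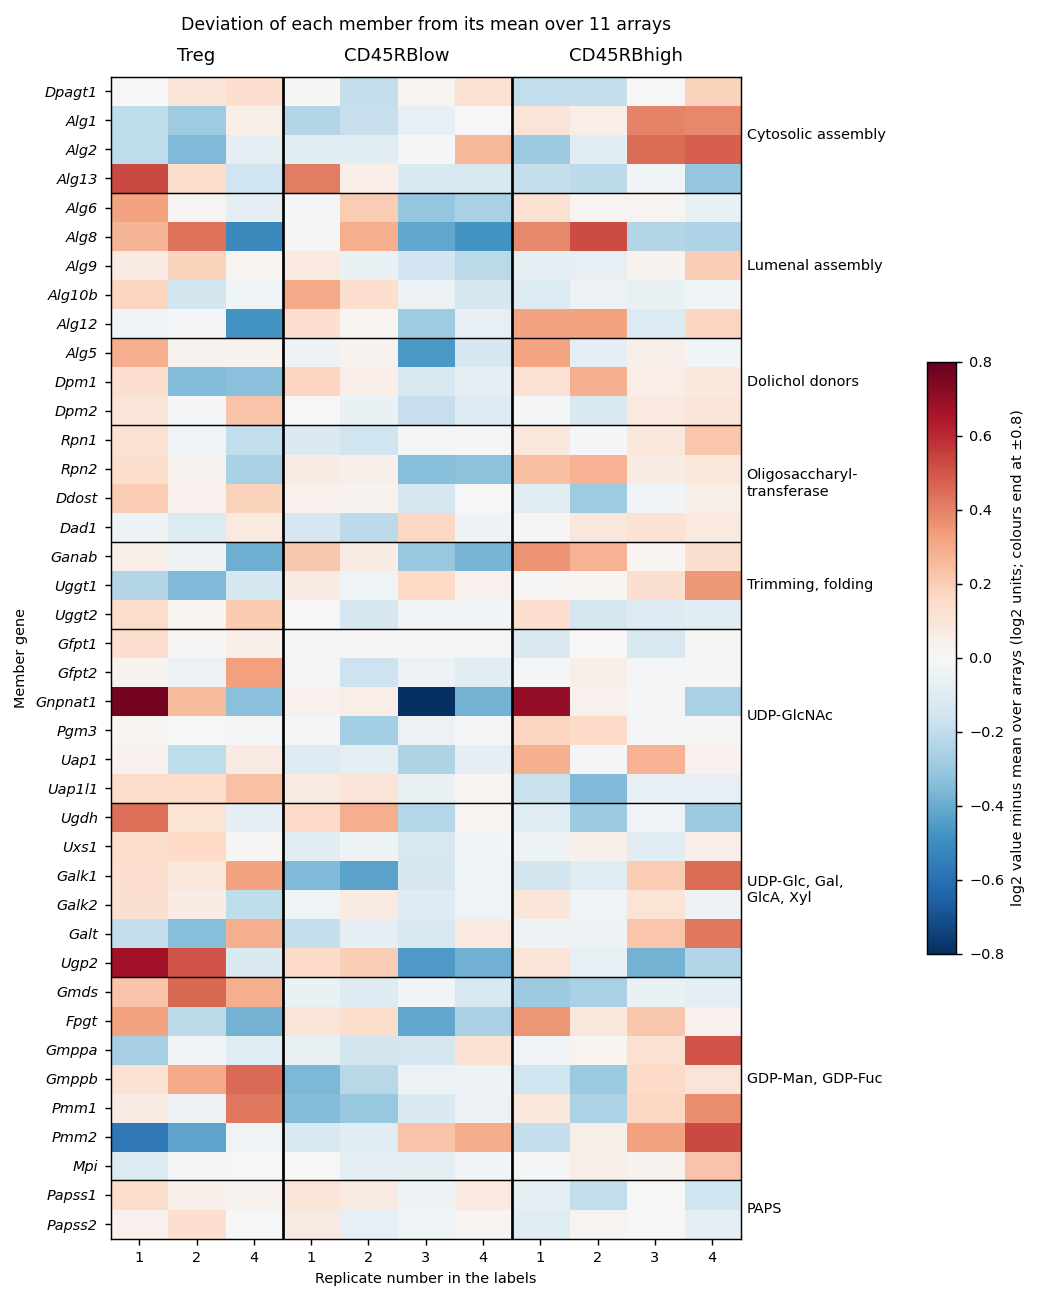
Deviation of each of the 40 members from its own mean over the 11 arrays, in log2 units (colour, ending at ±0.8), with members in rows grouped by role and arrays in columns grouped by population and ordered by replicate number. The rows of Alg8, Ugp2 and Ganab turn towards blue from replicates 1-2 to 3-4 in every population, those of Pmm2 and Galk1 turn towards red, and Gmds is red in the 3 Treg arrays alone.

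Between the populations 5 members differed in a fit that takes no account of the replicate number, each by 1.41-fold or less, and 16 differed with the number as a block. The fit without the block is described first. In Treg against CD45RBhigh cells, the GDP-fucose enzyme gene Gmds and the UDP-GlcNAc pyrophosphorylase-like gene Uap1l1 were higher, and the first mannosyltransferase gene Alg1 and the folding sensor gene Uggt1 were lower. In Treg against CD45RBlow cells, Gmds and the GDP-mannose pyrophosphorylase gene Gmppb were higher. In CD45RBlow against CD45RBhigh cells, Alg1 was lower. The limma test with Benjamini-Hochberg adjustment thus called 4 of 40 members (10%) in the first comparison, 2 higher and 2 lower, where it called 18.9% of all probe sets, 10.3% higher and 8.59% lower. It called 2 of 40 (5%) in the second, both higher, against 12.5% of all probe sets (6.74% higher and 5.78% lower). In the third it called 1 of 40 (2.5%), lower, against 12.6% (7.62% higher and 4.98% lower).

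The 3 comparisons share arrays, so that their results are not independent of each other. The median log2 difference over the 40 members was 0.06 for Treg minus CD45RBhigh, 0.09 for Treg minus CD45RBlow and -0.11 for CD45RBlow minus CD45RBhigh, beside -0.04, 0.04 and -0.08 over all probe sets. The median size of the difference, whatever its sign, was 0.18, 0.13 and 0.13 for the members and 0.11, 0.10 and 0.12 for all probe sets. At an unadjusted p under 0.05 the members numbered 13, 9 and 7, which is 32.5%, 22.5% and 17.5% of them, beside 30%, 22.6% and 28.4% of all probe sets. Groups that did not overlap were found for 6 members (15%), 9 (22.5%) and 3 (7.5%), beside 25%, 21.3% and 17.8% of all probe sets.

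Replicates of one number went together across the populations, as did other numbers of the same set. A fit with the replicate number as a block, which compares populations within each number, called more members than the fit without it. It called 12 (30%) in Treg against CD45RBhigh cells, 7 (17.5%) in Treg against CD45RBlow cells and 8 (20%) in CD45RBlow against CD45RBhigh cells, beside 26.5%, 19.7% and 21.7% of all probe sets. By direction these were 4 higher and 8 lower in the first (beside 12.1% and 14.4% of all probe sets), 5 higher and 2 lower in the second (8.99% and 10.7%) and 0 higher and 8 lower in the third (10% and 11.7%). With the replicate set in place of the number, the fit called 11, 7 and 6 members (beside 25.6%, 19.1% and 19.8%). The same comparisons within replicates 1-2 gave 8, 5 and 2 (beside 18.4%, 13.8% and 14.5%), and within replicates 3-4 gave 7, 3 and 4 (beside 14.6%, 10.4% and 10.6%). Without the block the share of members called was below that of all probe sets in each comparison. In Treg against CD45RBhigh cells this turned with the block (30% beside 26.5%), with the replicate set (27.5% beside 25.6%), within replicates 1-2 (20% beside 18.4%) and within replicates 3-4 (17.5% beside 14.6%), all close to the share of all probe sets. All calls made without the block were also made with it.

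Alg1 encodes the enzyme that adds the first mannose to the growing lipid-linked chain on the cytosolic face. Its log2 levels were 8.39, 8.31 and 8.64 in the Treg arrays (replicates 1, 2 and 4), 8.36, 8.41, 8.53 and 8.59 in CD45RBlow (replicates 1 to 4) and 8.70, 8.65, 8.99 and 8.98 in CD45RBhigh. Every CD45RBhigh array lay above every Treg and CD45RBlow array, though the nearest pair (8.65 and 8.64) all but touched, and Treg and CD45RBlow arrays overlapped. The log2 difference was -0.39 (SE 0.11, limma adjusted p = 0.0313) for Treg and -0.35 (SE 0.10, adjusted p = 0.0442) for CD45RBlow against CD45RBhigh, or -0.35 (SE 0.07, adjusted p = 0.00271) and -0.35 (SE 0.06, adjusted p = 0.00178) with the block. Without the block the first call ended when Treg replicate 1 (adjusted p = 0.106), Treg replicate 2 (0.134), CD45RBhigh replicate 3 (0.0787) or CD45RBhigh replicate 4 (0.0733) was left out. The second ended without CD45RBlow replicate 1 (0.128), 2 (0.114) or 3 (0.0672), or without CD45RBhigh replicate 3 (0.112) or 4 (0.0988). An intensity trend with robust variances also ended both (0.0507 and 0.0685), as did, for the first, a fit of the compared arrays alone (0.0693). Within replicates 1-2 and within replicates 3-4 the differences were -0.33 and -0.35 for Treg and -0.29 and -0.42 for CD45RBlow.

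The other cytosolic assembly genes were not past the threshold over all replicates in any population comparison, with or without the block. They were Dpagt1, which starts the chain with the first GlcNAc phosphate, Alg13, part of the enzyme that adds the second GlcNAc, and the mannosyltransferase gene Alg2. Treg minus CD45RBhigh differences were 0.13 for Dpagt1 (95% interval -0.10 to 0.35), 0.35 for Alg13 (-0.01 to 0.71) and -0.35 for Alg2 (-0.74 to 0.05). Within replicates 1-2 that difference was 0.53 for Alg13 (limma adjusted p = 0.0436), and within replicates 3-4, with 1 Treg array, -0.54 for Alg2. Of the lumenal genes, Alg12, a mannosyltransferase, was lower in Treg than in CD45RBhigh arrays with the block alone (log2 difference -0.44, SE 0.08, adjusted p = 0.00225, or -0.35, adjusted p = 0.142 without it). With the block Alg12 and the glucosyltransferase gene Alg8 were also lower in CD45RBlow than in CD45RBhigh arrays, by log2 differences of -0.23 (adjusted p = 0.0491) and -0.26 (adjusted p = 0.0199). That call of Alg12 ended with the replicate set in place of the number (adjusted p = 0.058). Alg6, Alg9 and Alg10b were not past the threshold in any population comparison in either fit.

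Among the dolichol donors, Dpm1, the catalytic subunit of dolichol-phosphate-mannose synthase, was lower in Treg than in CD45RBhigh arrays with the block (-0.35, SE 0.10, adjusted p = 0.0253) and not without it (-0.32, adjusted p = 0.10). Its regulatory subunit gene Dpm2 (mean level 9.19) and the dolichol-phosphate-glucose synthase gene Alg5 were not past the threshold in either fit. Of the oligosaccharyltransferase subunits Rpn1, Rpn2, Ddost and Dad1, none was called without the block. With it Rpn2 was lower than in CD45RBhigh arrays both in Treg (log2 difference -0.25, SE 0.07, adjusted p = 0.0312) and in CD45RBlow arrays (-0.31, SE 0.07, adjusted p = 0.00688). The block also placed Ganab, the catalytic subunit of glucosidase II, lower in Treg (-0.39, SE 0.08, adjusted p = 0.00324) and in CD45RBlow (-0.30, SE 0.07, adjusted p = 0.0116) than in CD45RBhigh arrays.

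Uggt1 encodes the glucosyltransferase that reads the folding state of glycoproteins. Its log2 levels were 9.09, 8.97 and 9.18 in Treg, 9.39, 9.29, 9.48 and 9.36 in CD45RBlow and 9.33, 9.34, 9.45 and 9.67 in CD45RBhigh arrays. All 3 Treg arrays were below all 8 CD25- arrays, which overlapped with each other. Uggt1 was 1.29-fold lower in Treg than in CD45RBhigh arrays (log2 difference -0.37, SE 0.09, limma adjusted p = 0.0147). With the block the difference was -0.35 (SE 0.08, adjusted p = 0.00739). With Treg replicate 2 left out of the fit without the block it was -0.31 (adjusted p = 0.0714) and no longer called. It was -0.31 (adjusted p = 0.0572) within replicates 1-2 and -0.38 (adjusted p = 0.0646) within replicates 3-4. Against CD45RBlow arrays the difference was -0.30 (SE 0.09, adjusted p = 0.0536), and it passed the threshold with the block (-0.28, SE 0.08, adjusted p = 0.0310). Its paralog Uggt2 read 3.49 to 3.84 and was not past the threshold in either fit.

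Uap1l1 was the only one of the 6 UDP-GlcNAc genes called between populations without the block. Its product resembles UAP1, the enzyme of the last step to UDP-GlcNAc. Its log2 levels were 7.76, 7.76 and 7.85 in Treg, 7.69, 7.72, 7.56 and 7.63 in CD45RBlow and 7.44, 7.26, 7.55 and 7.55 in CD45RBhigh arrays. The ranges of the populations followed each other without overlap, though those of CD45RBlow and CD45RBhigh (7.56 and 7.55) all but touched. Treg was 1.26-fold above CD45RBhigh (log2 difference 0.34, SE 0.08, adjusted p = 0.0120, or adjusted p = 0.0141 with the block), and the call without the block stood without each of the 7 arrays in turn (highest adjusted p = 0.0457). Within replicates 1-2 the difference was 0.41 (adjusted p = 0.00631), and within replicates 3-4, with 1 Treg array, 0.30 (adjusted p = 0.0806). CD45RBlow minus CD45RBhigh was 0.20 (SE 0.07, adjusted p = 0.109), and Treg minus CD45RBlow was not past the threshold. Uap1 itself read 7.34 to 7.51 in CD45RBlow and 7.57 to 7.87 in CD45RBhigh arrays, a log2 difference of -0.27 that passed with the block (adjusted p = 0.0476) and not without it (0.0750) or with the replicate set as a term (0.0532).

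Gfpt1 and Gfpt2, the amidotransferases that commit fructose 6-phosphate to hexosamines, Gnpnat1 and the mutase gene Pgm3 did not pass the threshold between populations in either fit. Gfpt1 had the same rounded value of 5.49 in all 4 CD45RBlow arrays and 7 distinct values over the 11 arrays. For Gnpnat1 the spread between arrays left wide intervals, with Treg minus CD45RBlow at 0.52 and a 95% interval from -0.15 to 1.19.

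Of the 6 genes for UDP-glucose, UDP-galactose, UDP-glucuronate and UDP-xylose, none was called between populations without the block. With it Ugp2, which makes UDP-glucose, was higher in Treg than in CD45RBhigh (0.40, SE 0.10, adjusted p = 0.00951) and CD45RBlow arrays (0.38, SE 0.10, adjusted p = 0.0175). The galactokinase gene Galk1 was lowest in CD45RBlow arrays, where it read 7.49, 7.42, 7.71 and 7.81, against 7.98, 7.93 and 8.17 in Treg and 7.70, 7.75, 8.05 and 8.29 in CD45RBhigh arrays. Treg and CD45RBlow arrays did not overlap, and the CD25- populations did, although at each number the CD45RBlow array was the lower of the pair. With the block Treg was higher by 0.45 (SE 0.08, adjusted p = 0.00216) and CD45RBlow lower than CD45RBhigh by a log2 difference of -0.34 (SE 0.07, adjusted p = 0.00637), and without it the adjusted p values were 0.0981 and 0.133. Galk2, the uridylyltransferase gene Galt, the UDP-xylose synthase gene Uxs1 and Ugdh, which oxidises UDP-glucose (mean level 8.69), were not past the threshold in either fit.

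Gmds, the dehydratase that turns GDP-mannose towards GDP-fucose, gave the smallest adjusted p of any member between populations without the block. Its log2 levels were 7.10, 7.33 and 7.16 in Treg, 6.82, 6.77, 6.85 and 6.74 in CD45RBlow and 6.58, 6.61, 6.82 and 6.80 in CD45RBhigh arrays. The Treg arrays lay above all others and the CD25- populations overlapped. Treg was 1.41-fold above CD45RBhigh (0.49, SE 0.08, limma adjusted p = 0.00103) and 1.32-fold above CD45RBlow (0.40, SE 0.08, adjusted p = 0.00643), and with the block the differences were 0.52 (adjusted p = 0.000758) and 0.43 (adjusted p = 0.00381). Without the block neither call ended when any 1 array was left out. Within replicates 1-2 the differences were 0.62 (adjusted p = 0.000935) and 0.42 (adjusted p = 0.0134), and within replicates 3-4, where Treg has 1 array, 0.35 (0.0717) and 0.36 (0.0758).

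Gmppb, the catalytic subunit that makes GDP-mannose, read 7.56, 7.74 and 7.89 in Treg, 7.08, 7.22, 7.39 and 7.40 in CD45RBlow and 7.28, 7.14, 7.59 and 7.54 in CD45RBhigh arrays. Treg lay above all CD45RBlow arrays and overlapped CD45RBhigh arrays. The log2 difference was 0.46 (SE 0.13, adjusted p = 0.0345) against CD45RBlow and 0.35 (SE 0.13, adjusted p = 0.0881) against CD45RBhigh, and with the block 0.51 (SE 0.08, adjusted p = 0.000723) and 0.40 (SE 0.08, adjusted p = 0.00264). Without the block the call against CD45RBlow ended without Treg replicate 2 (adjusted p = 0.104) or 4 (0.136), or CD45RBlow replicate 1 (0.101) or 2 (0.0833). Within replicates 1-2 and within replicates 3-4 it was 0.50 and 0.49.

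Pmm1 and Pmm2 encode the phosphomannomutases, which make mannose 1-phosphate for Gmppb's product. Pmm2 read 8.55, 8.70 and 9.09 in Treg, 9.00, 9.03, 9.35 and 9.42 in CD45RBlow and 8.93, 9.17, 9.44 and 9.65 in CD45RBhigh arrays. At each number the Treg array was the lowest of the populations, although the groups overlapped across numbers. With the block Pmm2 was lower in Treg than in CD45RBhigh (-0.47, SE 0.07, adjusted p = 0.000564) and CD45RBlow arrays (-0.37, SE 0.07, adjusted p = 0.00370), and without it the adjusted p values were 0.0789 and 0.197. Pmm1 was higher in Treg than in CD45RBlow (0.38, SE 0.08, adjusted p = 0.00743) and lower in CD45RBlow than in CD45RBhigh arrays (-0.29, SE 0.07, adjusted p = 0.0159), again with the block alone. Treg minus CD45RBhigh was 0.08 (adjusted p = 0.578) for Pmm1 with the block. Gmppa, the regulatory partner of Gmppb, was lower in Treg than in CD45RBhigh arrays with the block (-0.30, SE 0.10, adjusted p = 0.0433), a call that ended with the replicate set as a term (-0.26, adjusted p = 0.106). Its dimmer probe set, which was not used, read 7.96 to 8.20 in Treg and 8.21 to 8.76 in CD45RBhigh arrays. The mannose phosphate isomerase gene Mpi and the fucose salvage gene Fpgt were not past the threshold between populations.

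Papss1 and Papss2, which make the sulfate donor PAPS, were not past the threshold between populations. Papss1 read 8.69 to 8.80 in Treg and 8.46 to 8.66 in CD45RBhigh arrays without overlap, a log2 difference of 0.18 (SE 0.07, adjusted p = 0.0846).

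**Figure D2:**
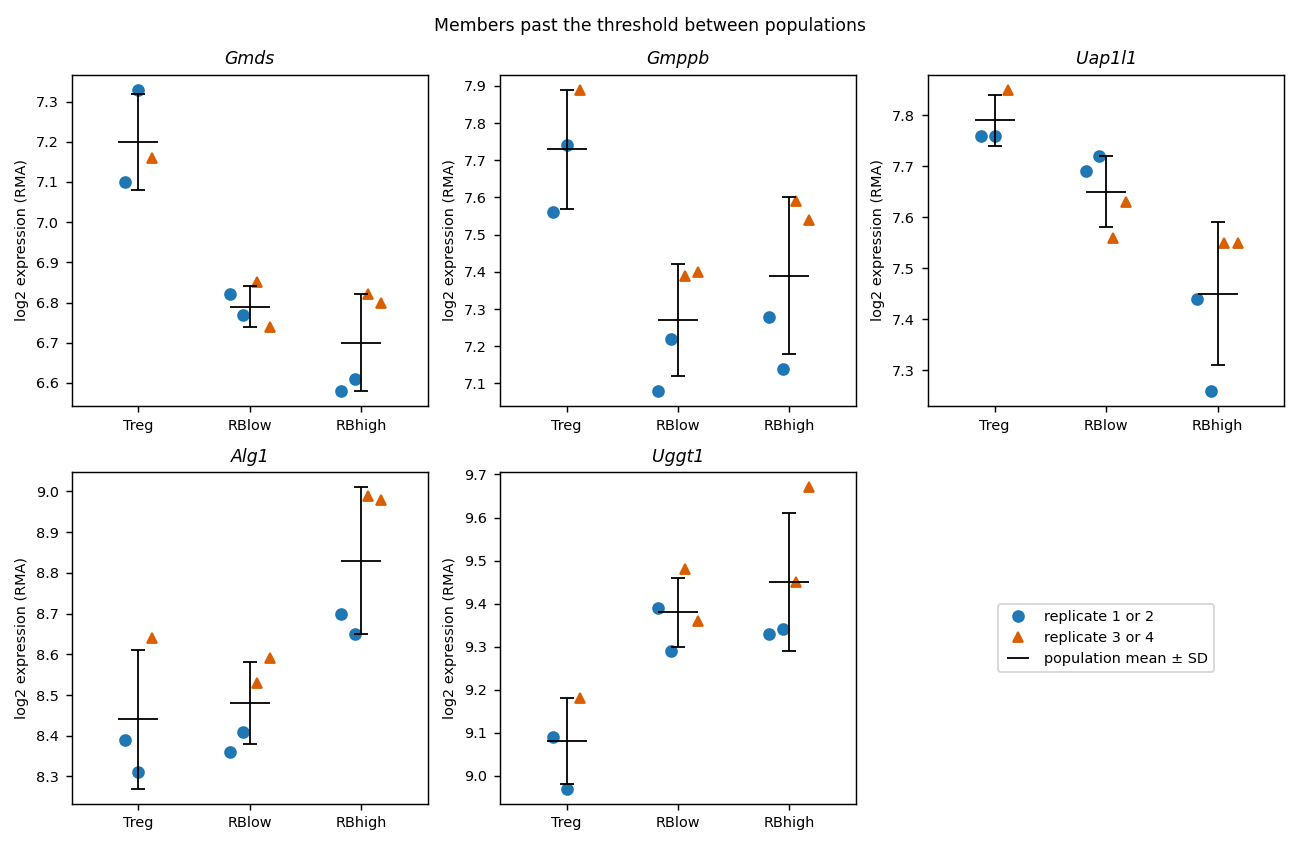
log2 expression of the 5 members past the threshold between populations without the replicate block, by population, with 1 point per array (circles for replicates 1 and 2, triangles for 3 and 4) and the population mean ± SD. The Treg points of Gmds lie at 7.10 to 7.33 above all other arrays, those of Uggt1 at 8.97 to 9.18 below all others, and the CD45RBhigh points of Alg1 at 8.65 to 8.99 above all others.

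**Figure D3:**
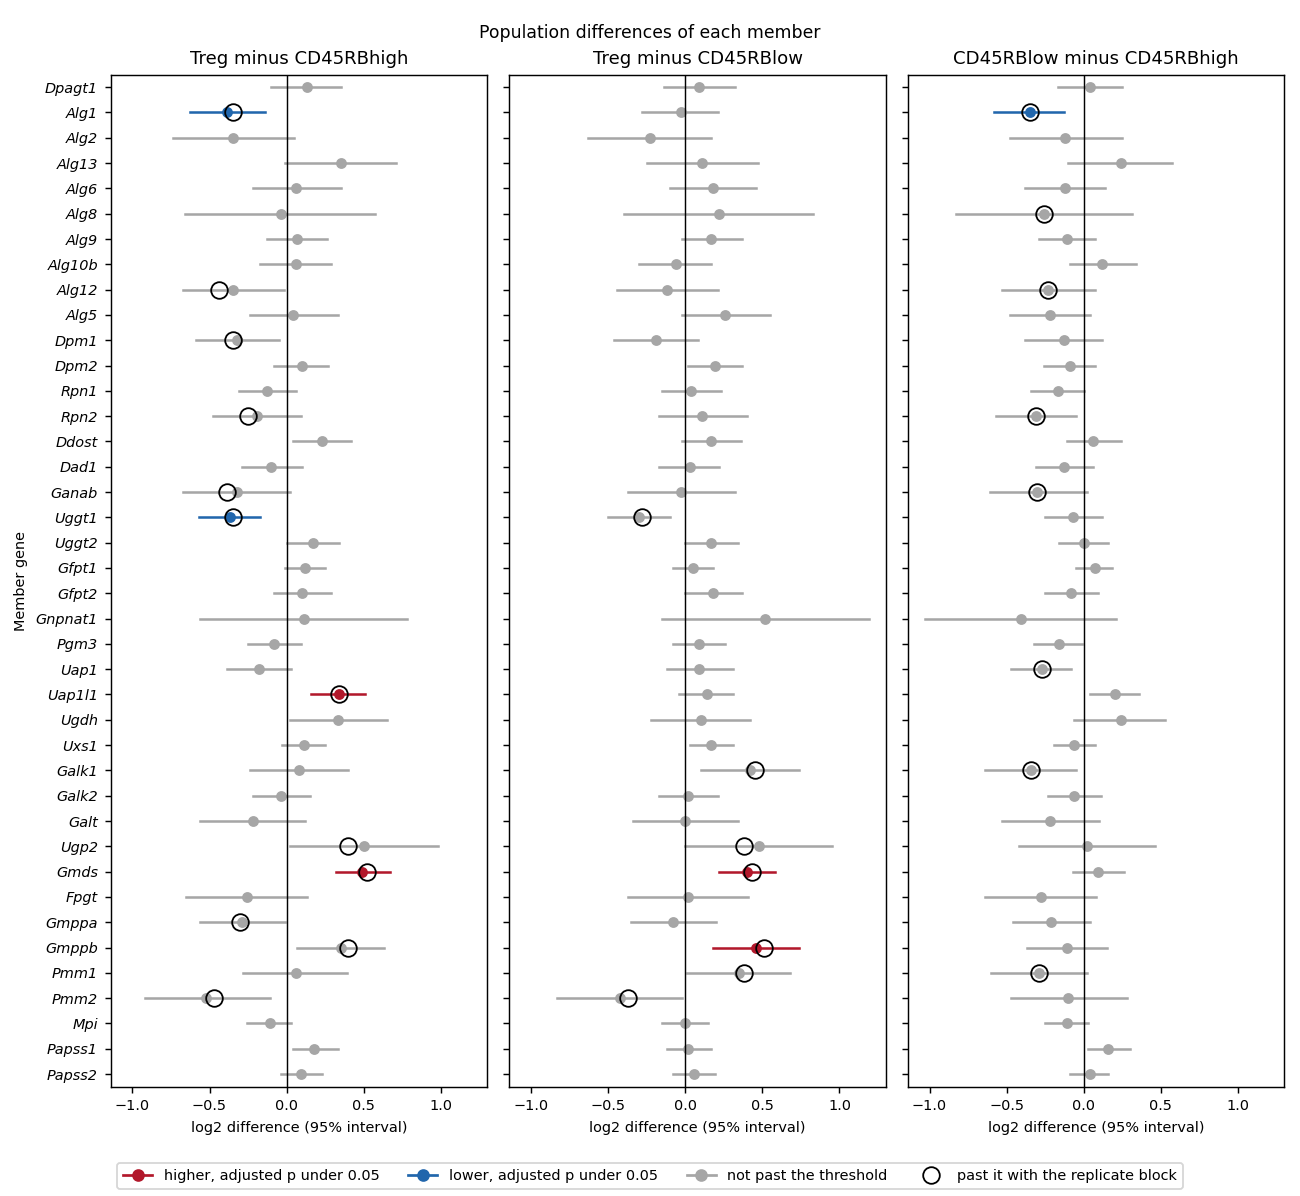
log2 difference with 95% interval for each of the 40 members in the 3 population comparisons, without the replicate block. Coloured points are past an adjusted p of 0.05 (4, 2 and 1 members), and open circles mark the estimate of members past it with the block (12, 7 and 8), which in the comparison of CD45RBlow with CD45RBhigh are all to the left of 0.

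More members differed by replicate number than between any pair of populations. With population in the model, 15 of 40 members (37.5%) differed between replicates 3-4 and replicates 1-2, where 20.6% of all probe sets did (limma, Benjamini-Hochberg over all probe sets). Of these, 7 were higher in replicates 3-4 (Alg1, Alg2, Galk1, Galt, Gmppb, Pmm1 and Pmm2) and 8 were lower (Alg6, Alg8, Alg12, Rpn2, Ganab, Gnpnat1, Ugp2 and Fpgt), that is 17.5% and 20% of the members beside 11.2% and 9.47% of all probe sets. At an unadjusted p under 0.05 the count was 20 (50%, beside 31.7%). All 15 had the same sign in each of the 3 populations. They were picked by a term fitted to the populations together, which favours a shared sign, so this is no separate support. The labels do not say what the number marks. The final digits of the sample titles are shared by the populations at each number.

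The median size of the set difference was 0.18 for the members and 0.09 for all probe sets, while the median with its sign was 0.00 and 0.03. Taking the population comparisons without the block, 13 of the 40 members were past the threshold by replicate set alone, 3 between populations alone (Gmds, Uap1l1 and Uggt1), 2 in both (Alg1 and Gmppb) and 22 in neither. Taking them with the block, 5 were past it by replicate set alone (Alg2, Alg6, Gnpnat1, Galt and Fpgt), 6 between populations alone (Dpm1, Uggt1, Uap1, Uap1l1, Gmds and Gmppa), 10 in both and 19 in neither. Neither split was counted over all probe sets, so both describe the members and do not set them apart.

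Of the 4 cytosolic assembly genes, 2 were higher in replicates 3-4 (Alg1 and Alg2) and none was lower, beside 11.2% and 9.47% of all probe sets. Dpagt1 (0.19, adjusted p = 0.0525) and Alg13 (-0.24, adjusted p = 0.147) were not past the threshold and had opposite signs. Alg1 differed by 0.25 (SE 0.05, adjusted p = 0.00328). Alg2, which adds mannoses after Alg1, read 6.89 and 6.74 (Treg), 7.01 and 7.01 (CD45RBlow) and 6.80 and 7.01 (CD45RBhigh) in replicates 1 and 2. In replicates 3-4 it read 7.02 (Treg), 7.08 and 7.36 (CD45RBlow) and 7.54 and 7.57 (CD45RBhigh). Each replicate 3 or 4 array was above each replicate 1 or 2 array, though the nearest (7.02 and 7.01) all but touched. The gap was widest in CD45RBhigh, and the difference between the sets was 0.38 (SE 0.09, adjusted p = 0.0116).

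Of the 5 lumenal genes, 3 were lower in replicates 3-4 and none was higher, beside 9.47% and 11.2% of all probe sets. The cytosolic and lumenal groups, chosen with results of these data known, were not tested against each other. Alg8, which adds the second of the terminal glucoses, read 7.68 and 7.84 (Treg), 7.40 and 7.70 (CD45RBlow) and 7.79 and 7.93 (CD45RBhigh) in replicates 1 and 2. In replicates 3-4 it read 6.89 (Treg), 6.99 and 6.93 (CD45RBlow) and 7.17 and 7.16 (CD45RBhigh). The sets did not overlap over all 11 arrays, and Alg8 was 1.63-fold lower in replicates 3-4 (-0.70, SE 0.07, adjusted p = 8.7e-05), the largest set difference among the members. Alg12 was lower by a log2 difference of -0.32 (SE 0.07, adjusted p = 0.00540), with -0.46 in Treg, -0.26 in CD45RBlow and -0.29 in CD45RBhigh arrays. Alg6, which adds the first glucose and is dim here, was lower by -0.24 (SE 0.07, adjusted p = 0.0432). That call ended when any 1 array other than Treg replicate 2, CD45RBhigh replicate 2 or CD45RBhigh replicate 3 was left out, with adjusted p up to 0.121, the value without Treg replicate 4. Alg9 and Alg10b differed by -0.03 and -0.11 and were not past the threshold.

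Rpn2 was the 1 oligosaccharyltransferase subunit of 4 that differed. It read 8.88 to 8.99 in Treg, 8.89 to 8.91 in CD45RBlow and 9.09 to 9.13 in CD45RBhigh arrays of replicates 1-2, and 8.59, 8.51 to 8.52 and 8.91 to 8.94 in those of replicates 3-4, with a difference of -0.30 (SE 0.05, adjusted p = 0.00204). Ganab read 8.88 and 8.79, 9.05 and 8.89, and 9.19 and 9.11 in replicates 1-2 of Treg, CD45RBlow and CD45RBhigh, and 8.44, 8.53 and 8.46, and 8.85 and 8.96 in replicates 3-4. It was lower in replicates 3-4 within each population, by a log2 difference of -0.37 (SE 0.06, adjusted p = 0.00136). Uggt1 differed by 0.15 (adjusted p = 0.102) and the dolichol donor genes by -0.19 to 0.06, all short of the threshold.

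Among the UDP-GlcNAc genes Gnpnat1 alone differed. It read 6.52 and 6.01 (Treg), 5.79 and 5.81 (CD45RBlow) and 6.46 and 5.79 (CD45RBhigh) in replicates 1 and 2. In replicates 3-4 it read 5.42 (Treg), 4.89 and 5.38 (CD45RBlow) and 5.75 and 5.50 (CD45RBhigh). The sets did not overlap, though by little, and replicates of one set were also far apart. The difference was -0.65 (SE 0.14, adjusted p = 0.00687).

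Ugp2 read 8.33 and 8.16 (Treg), 7.81 and 7.85 (CD45RBlow) and 7.76 and 7.59 (CD45RBhigh) in replicates 1 and 2, and 7.54 (Treg), 7.20 and 7.27 (CD45RBlow) and 7.28 and 7.42 (CD45RBhigh) in replicates 3-4. It was lower in each replicate 3 or 4 array than in any other, by a log2 difference of -0.52 (SE 0.07, adjusted p = 0.000614). The galactose salvage genes Galk1 and Galt were higher in replicates 3-4, by 0.33 (SE 0.06, adjusted p = 0.00279) and 0.32 (SE 0.08, adjusted p = 0.0146). The call of Galt ended without Treg replicate 4 (0.24, adjusted p = 0.0828).

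Of the 7 genes for GDP-mannose and GDP-fucose, 3 were higher in replicates 3-4 and 1 was lower, beside 11.2% and 9.47% of all probe sets. The higher ones were Pmm2 (0.44, SE 0.06, adjusted p = 0.000836), Pmm1 (0.33, SE 0.07, adjusted p = 0.00621) and Gmppb (0.28, SE 0.06, adjusted p = 0.00434). Mpi, the first enzyme from fructose 6-phosphate to GDP-mannose, and Gmppa differed by 0.05 and 0.17 and were not past the threshold. Fpgt, which makes GDP-fucose from salvaged fucose, was lower (-0.32, SE 0.10, adjusted p = 0.0483), a call that ended when any 1 array other than the same 3 as for Alg6 was left out, with adjusted p up to 0.173, the value without Treg replicate 4. Centring the arrays on their medians (0.0519) or an intensity trend with robust variances (0.051) also ended it. Gmds, whose level set Treg apart, differed by 0.07 between the replicate sets. Papss1 and Papss2 differed by -0.02 and -0.03.

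**Figure D4:**
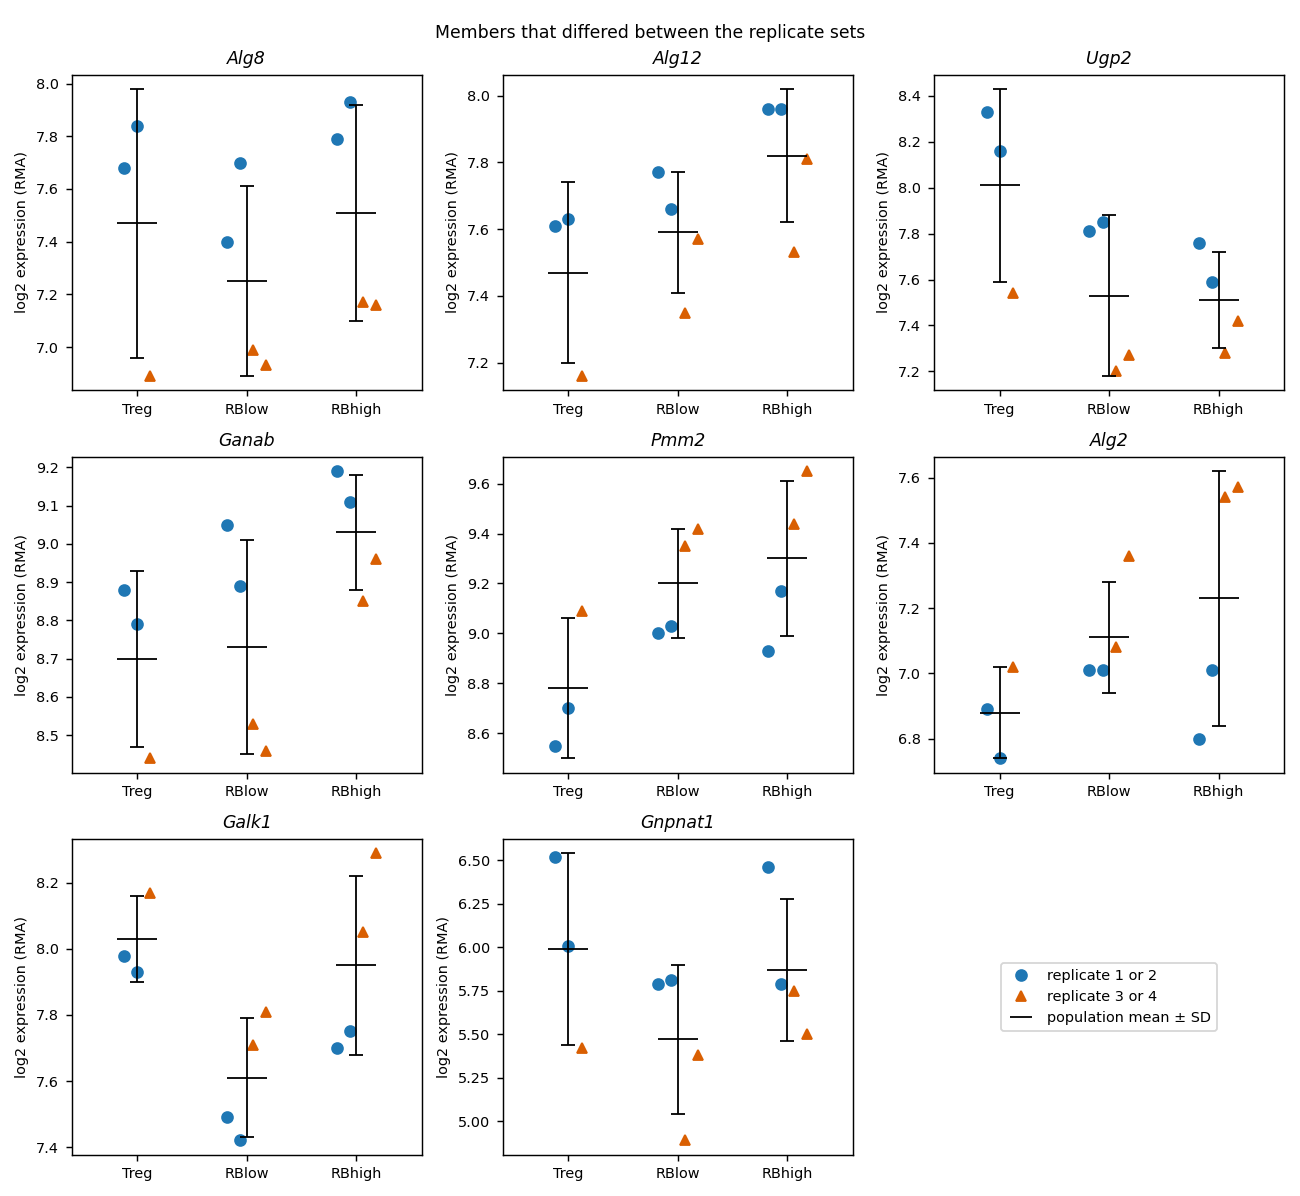
log2 expression of 8 members that differed between the replicate sets, by population, with 1 point per array (circles for replicates 1 and 2, triangles for 3 and 4) and the population mean ± SD. Within every population the triangles lie below the circles for Alg8, Alg12, Ugp2, Ganab and Gnpnat1 and above them for Pmm2, Alg2 and Galk1.

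**Figure D5:**
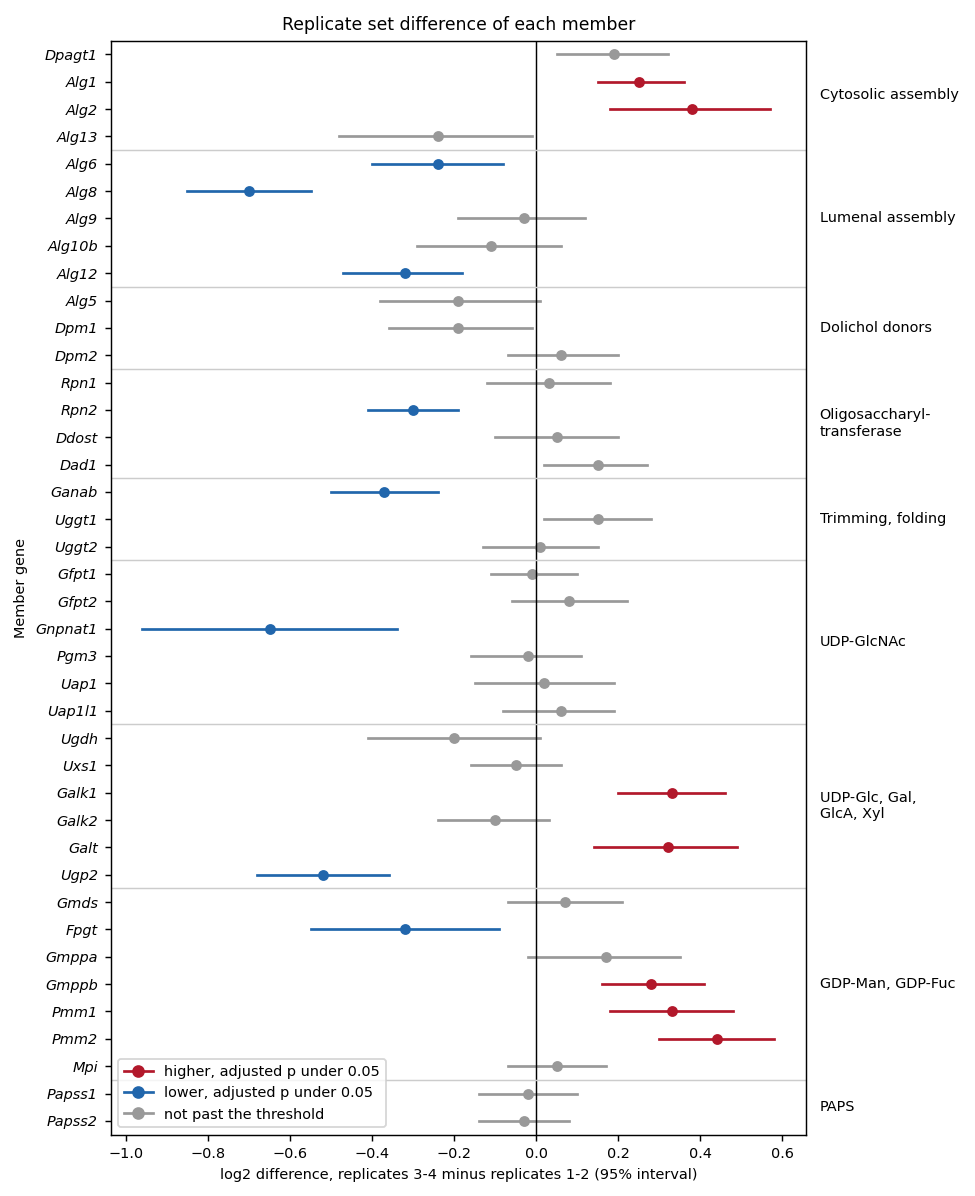
log2 difference of replicates 3-4 minus replicates 1-2 with its 95% interval for each of the 40 members, population in the model, grouped by role. The 8 members past an adjusted p of 0.05 on the left run from -0.70 (Alg8) to -0.24 (Alg6), the 7 on the right from 0.25 (Alg1) to 0.44 (Pmm2), and the 5 lumenal assembly genes all lie left of 0.

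Some marker genes also differed between the sets, as 20.6% of all probe sets did. Of the 5 Treg markers measured, Il10, Itgae and Klrg1 were lower in replicates 3-4 (-0.58 to -0.62), as were the activation markers Cd44 (-0.82) and Ifng (-0.73) of 6 and the B cell marker Cd72 (-0.29) of 2, while the myeloid marker Csf1r (0.16) of 5 was higher. Il2ra (-0.18, adjusted p = 0.450) was not past the threshold. Cd2 and the measured naive (3), NK and CD8 T cell (3) and platelet markers (2) were not past it either. The summed myeloid level lay at 6.25 to 6.36 in replicates 1-2 and at 6.35 to 6.43 in replicates 3-4. The part of such cells or of the cells' state in the set difference of the members was not tested.

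No member passed the threshold in a test of whether a population difference changed between the replicate sets (limma, 0 of 40 in each of the 3 comparisons, beside 0.161%, 0.0803% and 0.241% of all probe sets). At an unadjusted p under 0.05 there were 4 members (10%) in each, beside 7.7%, 5.62% and 9.63%. In the comparisons with Treg this test rests on 1 Treg array in replicates 3-4.

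The region before the gene start was examined for the members that were lower in replicates 3-4, since Alg12, Rpn2 and Ganab were also lower together with the block in both comparisons with CD45RBhigh cells. Alg1 was lower in both too, but higher in replicates 3-4. Ugp2, lower in replicates 3-4, was lower in neither (log2 differences 0.40 for Treg and 0.02 for CD45RBlow with the block). A cause shared by these genes was not tested. The genes shown were chosen after their values were seen. The endoplasmic reticulum stress element, which is CCAAT, 9 bases of any kind and CCACG, is bound by NF-Y at its CCAAT end and by ATF6 at the other end when unfolded protein accumulates. Windows of 250 bases before the annotated start, from RefSeq on GRCm38.p6, were held for 34 of the 40 members and searched on both strands. The element was found for 1 of 34 members (2.94%), Alg12, and for 0.13% of 27025 genes with a window. Its CCAAT part alone was found for 17 of 34 members (50%) and for 37.5% of all genes, and the unfolded protein response element TGACGTGG for 0 members and 0.603% of genes. Every match of the full element is also a match of CCAAT. Of the 8 members lower in replicates 3-4, 6 had a window and 4 of these held CCAAT. Of the 7 higher members 5 had a window and 1 held it, and of the 25 others 23 and 12. These are matches of letters and show no binding. The windows of those 4 genes are given 5′ to 3′ on the gene's strand, Alg12 at chr15:88819319-88819568 (minus strand), Ganab at chr19:8897807-8898056 (plus), Rpn2 at chr2:157278848-157279097 (plus, 1 of 2 annotated starts) and Ugp2 at chr11:21371268-21371517 (minus, 1 of 2 annotated starts). For Rpn2 and Ugp2 the window shown was picked because it held CCAAT, and the window of the other start held none. In the counts a gene held a motif if any of its windows did. Capitals mark the full stress element in Alg12, whose first base lies 220 bases before the start, and CCAAT or its reverse complement ATTGG in the other genes.
Alg12: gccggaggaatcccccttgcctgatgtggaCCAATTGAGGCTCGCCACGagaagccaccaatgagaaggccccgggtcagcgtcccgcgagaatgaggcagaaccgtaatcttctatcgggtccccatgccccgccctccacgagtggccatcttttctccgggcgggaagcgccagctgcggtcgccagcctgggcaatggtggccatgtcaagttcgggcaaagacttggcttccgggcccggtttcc
Ganab: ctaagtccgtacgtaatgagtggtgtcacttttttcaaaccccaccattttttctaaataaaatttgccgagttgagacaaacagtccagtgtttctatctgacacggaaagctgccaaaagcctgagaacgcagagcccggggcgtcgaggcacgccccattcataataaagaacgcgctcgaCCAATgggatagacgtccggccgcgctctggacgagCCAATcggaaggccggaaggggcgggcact
Rpn2: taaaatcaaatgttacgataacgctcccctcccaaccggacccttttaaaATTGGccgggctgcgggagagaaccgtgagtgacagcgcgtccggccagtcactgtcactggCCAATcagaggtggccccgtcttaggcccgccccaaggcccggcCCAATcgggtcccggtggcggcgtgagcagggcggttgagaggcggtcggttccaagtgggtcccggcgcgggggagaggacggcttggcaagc
Ugp2: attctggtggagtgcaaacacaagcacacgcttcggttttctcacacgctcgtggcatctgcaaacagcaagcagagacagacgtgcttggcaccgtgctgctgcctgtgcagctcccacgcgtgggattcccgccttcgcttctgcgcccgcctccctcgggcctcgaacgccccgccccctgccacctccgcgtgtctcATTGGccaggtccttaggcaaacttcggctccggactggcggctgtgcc

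The CCAAT copies lay 66 and 30 bases before the start in Ganab, 200, 138 and 94 in Rpn2 and 49 in Ugp2, counted at the first base of each match. Alg12 held another copy, outside the capitals, 193 bases before its start. In the windows shown, Alg12, Ganab and Rpn2 each held more copies than Ugp2. Alg6 and Alg8 held none in any window. Copy numbers were not compared with those of other genes.

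Of 50 further genes listed for the same pathways, 16 were measured. Against each of the other populations 1 was higher and 1 lower in Treg arrays, where 18.9% (CD45RBhigh) and 12.5% (CD45RBlow) of all probe sets were called. In Treg arrays Renbp, which acts on GlcNAc and renin, was higher than in CD45RBhigh (0.36, SE 0.09, limma adjusted p = 0.0181) and CD45RBlow arrays (0.43, SE 0.09, adjusted p = 0.00885). Cmas, which activates sialic acid as its CMP sugar, was lower (-0.41, SE 0.08, adjusted p = 0.00238, and -0.30, SE 0.08, adjusted p = 0.0228). The limma test called 0 of the 16 between CD45RBlow and CD45RBhigh cells, beside 12.6% of all probe sets, and 2 at an unadjusted p under 0.05, beside 28.4%. By replicate set 5 of 16 were called, beside 20.6%. Of these 3 were higher in replicates 3-4, Gfus (0.29) of GDP-fucose synthesis, which acts after Gmds, the GlcNAc kinase gene Nagk (0.25) and the sialic acid synthesis gene Gne (0.32). The lectin chaperone gene Canx (-0.25), whose product holds glycoproteins trimmed by Ganab's, and the O-GlcNAc hydrolase gene Oga (-0.29) were lower.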

How the data were processed

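The authors deposited 1 table of log2 values, made with Robust Multichip Average (RMA) per the series text and the submitters' processing notes, 1 value per probe set and array. The RMA version is not given in the sources used here. The chip holds probe sets for glycosylation-related and reference transcripts. RNA was extracted with Trizol per the labels and with an RNeasy kit per the series text, and 0.5 µg was amplified and labelled with biotin per the labels. The values were used as deposited, with no filter or further normalization. Probe sets were named through RefSeq transcripts, version and suffix dropped. This named 963 of 1246 probe sets, and 283 had no name here.

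limma 3.58.1 in R 4.3.3 was fitted to all 1246 probe sets and 11 arrays with 1 mean per population (empirical Bayes prior degrees of freedom 2.87, residual 8). Two-sided p-values were adjusted by Benjamini-Hochberg over all probe sets, with a threshold of 0.05 and 95% intervals. The replicate set (3-4 minus 1-2) was a term beside population, and its interaction came from 6 means of population and set. The members, role groups, marker lists and tests were chosen with earlier results of these data known. Named members are those past the threshold in a population comparison or by replicate set and, in each role group, the one with the highest mean and the one with the smallest p. Members outside this rule were named to complete their role group.

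Deviations from the population mean correlated at 0.31 to 0.56 over the 10 pairs of arrays with one replicate number, at 0.20 to 0.58 between other numbers of the same set, and at -0.65 to -0.18 between sets. Every pair of one number was above 0.1, the limit set for taking the numbers to pair the samples. Pairs of other numbers within a set were also above it, so this limit cannot tell pairing by number from a difference between the sets. Values from a fit blocked on the number stand beside the results it changes. Arrays of one population correlated at 0.991 to 0.998 across probe sets. The number of arrays limits the precision. The fits were tested on simulated data. Figures were drawn with matplotlib 3.10.9 and pandas 2.3.3 in Python 3.11.15.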

Additional observations from a re-analysis of the deposited data

Results flagged for a closer look

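In 2 of 80 groups of 4 arrays (each of the 40 members in CD45RBlow and in CD45RBhigh cells), 1 array stood apart from the other 3 by more than Dixon's 95% limit for the gap as a share of the range. Chance gives about 5% of groups. Gfpt2, an amidotransferase of the hexosamine route, read 5.23 in CD45RBhigh replicate 2 and 5.17 in each of the other 3 arrays. Pgm3, the mutase of the same route, read 3.12 in CD45RBlow replicate 2 and 3.34 to 3.38 in the other 3, and its mean is under the first quartile of all values. Over all replicates neither gene was past the threshold in any population comparison, with or without the block, or by replicate set. Within replicates 3-4, with 1 Treg array, Gfpt2 was higher in Treg by 0.34 against CD45RBhigh and 0.39 against CD45RBlow arrays.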

How the results depend on the processing

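The number of members called between populations depended on how the replicate structure was handled. With the replicate block it was 12 in Treg against CD45RBhigh, 7 in Treg against CD45RBlow and 8 in CD45RBlow against CD45RBhigh cells. The fit without the block gave 4, 2 and 1, and the labels state no pairing. With the replicate set as a term it was 11, 7 and 6, within replicates 1-2 alone 8, 5 and 2, and within replicates 3-4 alone 7, 3 and 4. Arrays quantile normalized again gave 8, 4 and 4, and an intensity trend with robust variances gave 3, 2 and 0 (with 7 members at an unadjusted p under 0.05 in the last comparison of the main fit). Leaving out 1 array in turn gave 2 to 6, 1 to 2 and 0 to 1 members. The cause of these shifts was not tested, beyond the smaller number of arrays where arrays were left out. For the fits with new normalization, robust variances or an array left out, the share of all probe sets called is not given. Those counts can therefore not be set against all probe sets.

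The count by replicate set was 15. It ran from 12 to 17 without 1 array and was 10 in the CD25- populations alone, where Alg6, Alg12, Galt, Fpgt and Pmm1 were not called, and 14 or 15 under each other setting for scaling, moderation and probe set choice. The share of all probe sets called in these other fits is not given, so these counts cannot be set against it. Additional centring of the arrays, or quantile normalization again, moved the median of all probe sets by 0.02 or less in size. The interaction gave 0 members under 5 alternatives, which were chosen after seeing the data. Over the named members and all alternatives, 1344 values kept their direction and side of the threshold, 57 were called in neither fit and changed sign, 46 lost the threshold, 67 passed it newly and 0 turned sign while called. Treg has a single array in replicates 3-4. Signal was low for the 10 members with means below the lowest array median, and lowest for Alg6, Pgm3, Galk2 and Uggt2.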
